A study of Mus musculus with 4 samples.

Results

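A set of 10 genes that encode receptors for inflammatory cytokines and TNF-family ligands was followed through sensory neurons of the dorsal root ganglion (DRG) after nerve injury. They were taken by symbol from a fixed list: Il1r1, Il1rap, Tnfrsf1a, Tnfrsf12a, Tnfrsf21, Ifngr1, Ifnar1, Tgfbr1, Tgfbr2 and Il17ra. All 10 were found among the 31053 genes counted in each library. Single-cell RNA sequencing had been run on GFP+ cells sorted from the lumbar (L4-5) DRGs of PirtEGFPf mice, in which EGFPf stands in place of a copy of the Pirt coding sequence and follows the endogenous Pirt promoter, active in most DRG neurons. All mice were heterozygous for that allele, on a C57BL/6 background and 7 to 8 weeks of age. The CCI group had bilateral chronic constriction injury (CCI), a loose ligation of both sciatic nerves, the sham group had sham surgery, and both were collected at day 7. Each group has 1 male and 1 female library, each from 20 DRGs of 5 pooled mice, so the 2 sexes serve as the 2 replicates, single animals cannot be seen and no difference between the sexes was tested. Littermates had the same surgery, so litter and surgery cannot be told apart, and the study notes that the neurofilament-rich neurons may be somewhat too few in the sort, since Pirt-negative neurons are mainly large NF200+ cells.

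The 4 libraries held 4019 to 8035 cells and 195684124 to 237069156 unique molecular identifiers (UMIs). Between 4.44% and 11.2% of the barcodes of the smaller library of a pair also occurred in the other library. After filtering, 34 of the 15712 kept cells shared a barcode with a kept cell of another library, and leaving them out ended no call on a member. Kept cells were grouped into 10 classes of neurons by marker genes fixed for each class, and the names carry "-like" because they were rebuilt here: non-peptidergic (NP1 to NP3), peptidergic (PEP1 to PEP5, with PEP3 and PEP4 joined), neurofilament-rich (NF1, NF2) and C-fibre low-threshold mechanoreceptor (cLTMR). A further 5 clusters, named CCI-ind after their injury markers, came mostly from CCI libraries. Pirt had at least 1 UMI in 98.3% to 99.5% of the neurons of each library and in 7.14% to 16.8% of the cells of a cluster with satellite glial markers (SGC-like). Sprr1a, a gene of injured sensory neurons, was used to split the neurons: Sprr1a+ means a log-normalised Sprr1a level above 1 (natural log of 1 plus counts per 10000 UMIs). By that limit 1466 of 2816 neurons of Male-CCI, 1788 of 3636 of Female-CCI, 42 of 3280 of Male-Sham and 144 of 5398 of Female-Sham were Sprr1a+.

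As background, the 10 genes cover 5 signalling systems. IL-1R1 binds IL-1α and IL-1β and signals once the accessory chain IL-1RAP joins it, through MyD88 to NF-κB. IL-17RA is the shared chain of the IL-17 receptors, usually paired with IL-17RC, and signals through the adaptor Act1. In the TNF-receptor family TNFR1 (Tnfrsf1a) and DR6 (Tnfrsf21) carry a death domain, while Fn14 (Tnfrsf12a), the receptor of TWEAK, is small, lacks a death domain and binds TRAF adaptors. Ifngr1 encodes the ligand-binding chain of the type II interferon receptor and Ifnar1 a chain of the type I interferon receptor. TGF-β binds the type II receptor kinase (Tgfbr2), which then recruits and phosphorylates the type I kinase (Tgfbr1) to activate SMADs. Nociceptive neurons are known to respond to several of these ligands, IL-1β, TNF, IL-17A and TGF-β among them.

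In the mm10 gene models (GENCODE vM21) the genes lie on chromosomes 1, 4, 6, 9, 10, 16 and 17. Tnfrsf12a is at chr17:23675445-23677468 on the minus strand and Tnfrsf21 at chr17:43016555-43089189 on the plus strand. Il1r1 is at chr1:40225080-40317257 (plus), Il17ra at chr6:120463247-120487559 (plus), Tnfrsf1a at chr6:125349362-125362484 (plus), Tgfbr2 at chr9:116084293-116175360 (minus) and Il1rap at chr16:26581704-26730117 (plus). Il1rap shares 15672 bases with Gm20319, an antisense gene that was counted as well, and no other member overlapped a counted gene. Start-site sequences were taken from RefSeq (build GRCm38.p6), which held windows of 300 bases for 9 of the members, 2 each for Il1r1 and Tgfbr1. The 250 bases before each start are shown 5′ to 3′ on the gene's strand for Tnfrsf12a, Il1r1 (2 starts) and Tgfbr2. These were among the 6 members called higher in Sprr1a+ CCI against Sprr1a- sham neurons over all classes. Of the others, Il17ra had no entry, and Tnfrsf1a and Tnfrsf21, called at the size limit, are not shown. Capitals mark 3 promoter motifs on either strand: the GC box, searched as GGGCGG, the box with the letters CCAAT and the one with the letters TATAAA.
Tnfrsf12a, chr17:23677450-23677699: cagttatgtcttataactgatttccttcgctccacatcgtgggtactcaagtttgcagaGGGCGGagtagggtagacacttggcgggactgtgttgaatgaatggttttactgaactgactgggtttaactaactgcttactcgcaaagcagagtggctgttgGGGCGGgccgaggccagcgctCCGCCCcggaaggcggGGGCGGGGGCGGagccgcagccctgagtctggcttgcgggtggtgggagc
Il1r1, first start, chr1:40224830-40225079: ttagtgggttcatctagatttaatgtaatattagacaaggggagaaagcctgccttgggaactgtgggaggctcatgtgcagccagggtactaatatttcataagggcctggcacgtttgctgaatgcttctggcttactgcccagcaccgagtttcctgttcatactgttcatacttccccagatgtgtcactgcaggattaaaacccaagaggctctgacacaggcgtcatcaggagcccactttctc
Il1r1, second start, chr1:40266336-40266585: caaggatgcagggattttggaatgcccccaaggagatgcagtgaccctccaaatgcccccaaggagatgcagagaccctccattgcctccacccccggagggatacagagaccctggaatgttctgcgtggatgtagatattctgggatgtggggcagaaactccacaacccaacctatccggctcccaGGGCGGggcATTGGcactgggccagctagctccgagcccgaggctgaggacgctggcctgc
Tgfbr2, chr9:116175364-116175613: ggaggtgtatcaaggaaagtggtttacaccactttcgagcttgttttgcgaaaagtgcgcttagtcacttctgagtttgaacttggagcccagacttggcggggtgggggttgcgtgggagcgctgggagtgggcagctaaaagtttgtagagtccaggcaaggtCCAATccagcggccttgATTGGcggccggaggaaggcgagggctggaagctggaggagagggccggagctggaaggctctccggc
The Tnfrsf12a window holds 5 GC boxes, and 35.7% of all 32851 windows in the table hold at least 1. The Tgfbr2 window holds 2 CCAAT boxes (37.4% of all windows hold at least 1) and the first Il1r1 window holds none of the 3 boxes. The AP-1 motif TGANTCA, present in 7.81% of all windows, and the CRE TGACGTCA, in 1.79%, matched in no window of the 9 members. The GAS motif TTCNNNGAA (8.30% of all windows) matched once in Tnfrsf1a and once in Ifnar1. Both strands were read, and these matches describe letters only.

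In Sprr1a- neurons of the sham libraries, the level of each receptor differed between classes: the highest class stood 3.77-fold (Ifnar1) to 102-fold (Tnfrsf1a) above the lowest, leaving out Il17ra, whose lowest class held 2 UMIs. Levels are CPM, in which the summed UMIs of a gene are scaled by all UMIs of the same cells, each pair giving Male-Sham and then Female-Sham, and levels of different genes were not compared. Tnfrsf1a, the TNFR1 gene, was at 31.8 and 34.7 in PEP5-like neurons. NF1-like neurons had 26.5 and 39.0 of it and NF2-like neurons 32.9 and 32.5, so that these classes overlapped each other. It was at most 1.37 in the NP-like and cLTMR-like neurons of either library. PEP3/4-like neurons had a mean of 13.1 and PEP1-like neurons 8.92. With doublets kept NF2-like took the highest place from PEP5-like (26.9 CPM as a mean), and for the other 9 members the highest class was the same then, at resolution 0.4, with clustering without injury genes, and with shared barcodes or Fabp7-rich neurons left out.

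**Figure D1:**
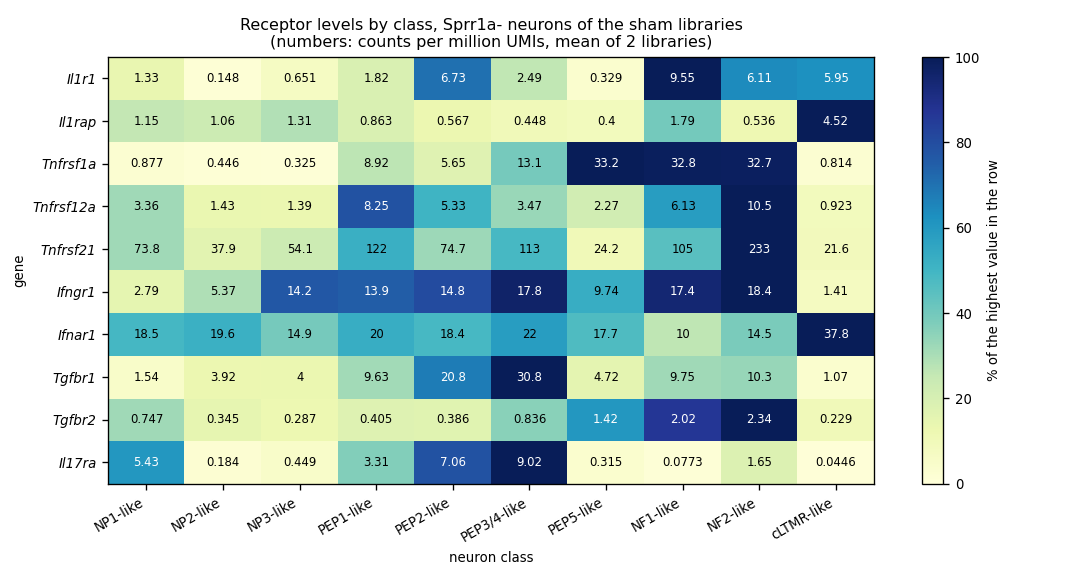
Mean level over 2 sham libraries of each receptor (rows) in Sprr1a- neurons of each class (columns); numbers are CPM and colour is the percent of the highest class in the row. Tnfrsf1a stands at 33.2, 32.8 and 32.7 in PEP5-, NF1- and NF2-like neurons and at 0.325 in NP3-like neurons, and Il17ra runs from 9.02 in PEP3/4-like to 0.0446 in cLTMR-like neurons.

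Il17ra, the shared IL-17 receptor chain, was highest in PEP3/4-like neurons (10.3 and 7.73 CPM), followed by PEP2-like (mean 7.06), NP1-like (5.43) and PEP1-like (3.31), with no overlap between these neighbours. In NF1- and cLTMR-like neurons it was near its floor, with 2 UMIs over both sham libraries in each. Il1r1 had another order, with NF1-like highest (10.4 and 8.73 CPM), then PEP2-like (6.73), NF2-like (6.11) and cLTMR-like (5.95), of which neighbours overlapped. NP2-like neurons held 9 Il1r1 UMIs, a mean of 0.148 CPM. Its partner Il1rap was highest in cLTMR-like neurons at 4.54 and 4.50 CPM, above NF1-like neurons at 1.16 and 2.43, and the other 8 classes reached at most 1.79 in a library. PEP2- and NF2-like neurons, which followed NF1-like for Il1r1, had means of 0.567 and 0.536 for Il1rap.

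For the other TNF-family receptors NF2-like neurons came first. Tnfrsf12a was at 10.7 and 10.3 CPM there, 9.01 and 7.48 in PEP1-like neurons and 0.923 as a mean in cLTMR-like neurons. Tnfrsf21, the DR6 gene, was at 245 and 220 in NF2-like neurons, 122 (mean) in PEP1-like, 113 in PEP3/4-like and 21.6 in cLTMR-like neurons, and the NF2-like pair did not overlap any other class.

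The interferon receptor genes ran in different orders. Ifnar1 was highest in cLTMR-like neurons (40.7 and 34.9 CPM), the class in which Ifngr1 was lowest (mean 1.41), and lowest in NF1-like neurons (mean 10.0). Ifngr1 was at means of 18.4, 17.8 and 17.4 in NF2-, PEP3/4- and NF1-like neurons, which overlapped. Of the TGF-β receptor pair, the type I chain Tgfbr1 was highest in PEP3/4-like (mean 30.8) and PEP2-like neurons (20.8), and the type II chain Tgfbr2 in NF2-like (2.34, from 26 UMIs) and NF1-like neurons (2.02, from 47 UMIs). PEP2-like neurons had 8 Tgfbr2 UMIs over both sham libraries, a mean of 0.386.

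Across the 20 sham profiles (10 classes in 2 libraries), the 10405 genes that reached 10 CPM in a profile were compared by Pearson's r of log2(CPM + 1) with each receptor whose classes differed at least 4-fold, as a description. Fxyd7 (0.962), Slc24a3 (0.958) and Syt2 (0.955) were most like Tnfrsf1a, Ttc33 (0.962) most like Il17ra, Adora2a (0.927) most like Il1r1, Dlc1 (0.922) most like Tnfrsf12a, and Pcdh18 (0.936) most like Tgfbr2. The points share libraries and depth within a library.

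The first comparison asked which receptors differ between CCI and sham when all neurons of a library are summed. Among the 10, 4 rose and 1 fell. Tnfrsf12a was at 6.88 and 8.42 CPM in Male-Sham and Female-Sham and 81.5 and 75.9 in Male-CCI and Female-CCI, a log2 change of 3.42 (SE 0.11). Il17ra was at 3.24 and 3.53 in sham and 18.7 and 19.6 in CCI, and rose by 2.56 (log2, SE 0.07, adjusted p = 3.96e-06, edgeR quasi-likelihood test). Il1r1 went from 3.22 and 3.34 to 12.6 and 13.3 CPM and rose by 2.04 (SE 0.06, adjusted p = 4.99e-06, edgeR). For these genes the groups lay far apart and the 2 libraries of a group close together. Tgfbr2, low throughout, was at 0.678 and 0.760 in sham and 1.53 and 1.39 in CCI (log2 change 1.08, SE 0.15, adjusted p = 0.00111, edgeR).

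Il1rap fell from 1.25 and 1.39 CPM to 0.793 and 0.970 (log2 change -0.53, SE 0.16, adjusted p = 0.0283, edgeR), a call that was lost with DESeq2 (-0.52), with doublets kept (-0.48), without Female-Sham (-0.45) and without Male-CCI (-0.40). In Sprr1a- neurons Il1rap was at 1.27 and 1.43 CPM in sham and 1.19 and 1.43 in CCI. The part of the class mix in the changes over all neurons was not tested. A gene was called at an adjusted p under 0.05 and an absolute log2 change above 0.5, which 27.8% of the 17233 genes tested met (15.2% higher, 12.7% lower). Tnfrsf1a (log2 change 0.49, SE 0.13) lay just under that limit and passed it without Female-Sham (0.68). Tnfrsf21 had a log2 change of 0.30, Ifngr1 -0.24, Ifnar1 0.06 and Tgfbr1 0.04, and none was called.

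**Figure D2:**
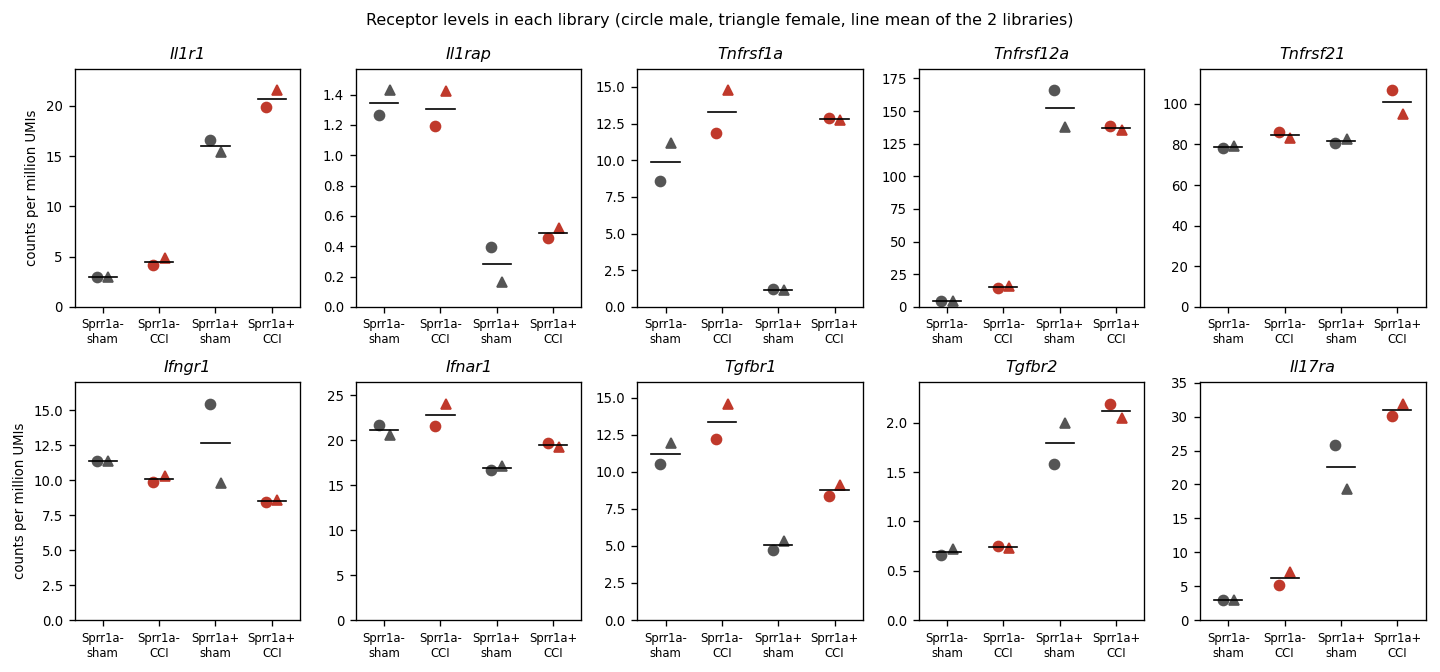
Level of each receptor (CPM, linear axis from 0) in Sprr1a- and Sprr1a+ neurons of the sham (grey) and CCI (red) libraries; circles are male and triangles female libraries, and the line is their mean. Tnfrsf12a, Il17ra and Il1r1 are higher in all 4 Sprr1a+ values than in any Sprr1a- value, while Tnfrsf1a is at 1.19 and 1.16 in Sprr1a+ sham neurons and at 12.9 and 12.7 in Sprr1a+ CCI neurons.

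The second comparison set Sprr1a+ CCI neurons against Sprr1a- sham neurons. The 4 comparisons over all neurons share libraries and are not independent of each other. Tnfrsf12a stood at 138 and 135 CPM in Sprr1a+ neurons of Male-CCI and Female-CCI, against 4.37 and 4.17 in Sprr1a- neurons of Male-Sham and Female-Sham (log2 change 5.15, SE 0.06, adjusted p = 3.55e-09, edgeR). Il17ra was at 30.2 and 31.9 against 2.88 and 3.01 (3.55, SE 0.07), Il1r1 at 19.9 and 21.5 against 3.01 and 2.94 (2.95, SE 0.08) and Tgfbr2 at 2.19 and 2.05 against 0.664 and 0.719 (1.76, SE 0.15). No Sprr1a+ value of these 4 genes overlapped a Sprr1a- value. Il1rap fell from 1.27 and 1.43 to 0.455 and 0.521 CPM (-1.32, SE 0.19). In all, 6 members were called higher and 1 lower, beside 49.8% of the 16879 genes tested (23.4% higher, 26.4% lower).

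The other calls of that comparison were small. Tnfrsf21 (0.50, SE 0.07) and Tnfrsf1a (0.52, SE 0.13) lay at the size limit, and Tnfrsf1a lost its call without Male-Sham (0.33), Male-CCI (0.51) or Female-CCI (0.53), Tnfrsf21 without Male-Sham (0.49) or Male-CCI (0.42). Both also lost it with library totals in place of TMM scaling, edgeR's correction of library sizes (0.37 for Tnfrsf1a, 0.36 for Tnfrsf21). Ifngr1 (-0.27), Ifnar1 (0.03) and Tgfbr1 (-0.21) were not called. Most Sprr1a+ CCI neurons, 1223 in Male-CCI and 1524 in Female-CCI, were in the CCI-ind clusters, whose class before injury is not given. The highest level in any class of Sprr1a- sham neurons was 10.7 CPM for Tnfrsf12a, 10.3 for Il17ra and 10.4 for Il1r1, all under the levels in Sprr1a+ CCI neurons, and 2.80 for Tgfbr2, which was above them. The highest class levels of Tnfrsf1a (39.0, NF1-like) and Tnfrsf21 (245, NF2-like) were also above their levels in Sprr1a+ CCI neurons (12.9 and 12.7, 107 and 94.7). For Tgfbr2, Il1rap, Tnfrsf1a and Tnfrsf21, a change in the mix of classes and one within a class cannot be told apart here.

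In a further comparison, Sprr1a+ and Sprr1a- neurons of the same CCI libraries were set against each other, with the library as a block. Tnfrsf12a differed most among the members (3.34, SE 0.04), followed by Il17ra (2.51, SE 0.09), Il1r1 (2.38, SE 0.07) and Tgfbr2 (1.69, SE 0.17), and Il1rap was lower (-1.25, SE 0.21). These 5 calls stand beside 45.5% of all 16241 genes tested (20.9% higher, 24.7% lower). The 2 populations differ in their mix of classes. Female-CCI held 207 Sprr1a- and 1 Sprr1a+ neurons of the cLTMR-like class, which had the highest Il1rap level in sham. The part of the class mix in these differences over all neurons was not tested. Tgfbr1 was at 8.39 and 9.12 CPM in Sprr1a+ and 12.2 and 14.6 in Sprr1a- neurons (-0.44, SE 0.07), under the size limit with TMM scaling and over it with library totals (-0.61). With library totals the median gene of this comparison moved to -0.17, and calls over all genes went from 3389 higher and 4005 lower to 2579 and 5004. Tnfrsf1a (0.12), Tnfrsf21 (0.42), Ifngr1 (-0.07) and Ifnar1 (-0.06) were not called.

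**Figure D3:**
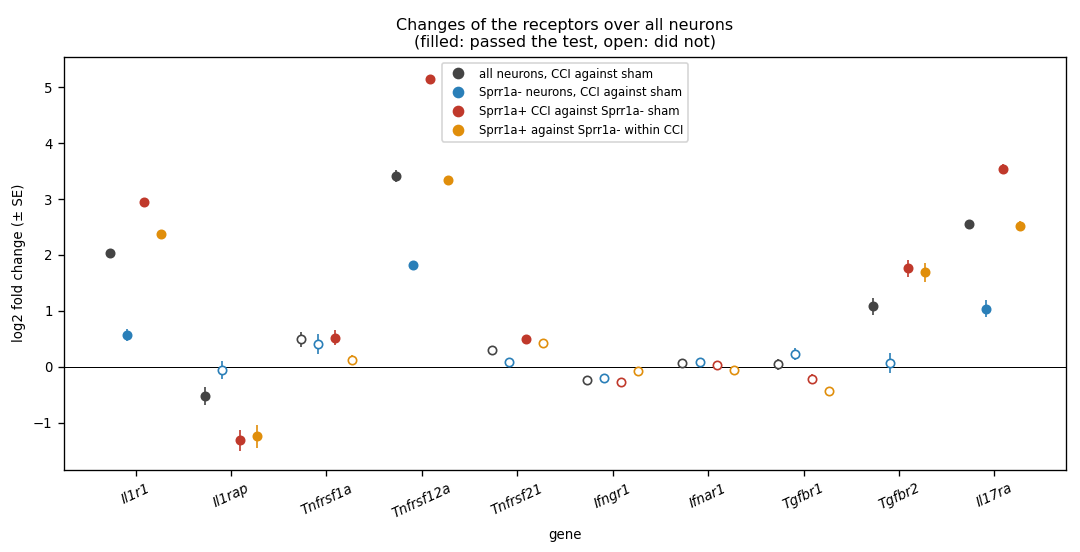
Log2 fold change with its standard error for each receptor in 4 comparisons over all neurons; filled points passed the test and open points did not. Tnfrsf12a, Il17ra and Il1r1 are filled in each comparison, with Tnfrsf12a running from 1.81 in Sprr1a- neurons to 5.15 for Sprr1a+ CCI against Sprr1a- sham.

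Levels were also read in the SGC-like cells (112 to 190 a library, median 4188 to 5175 UMIs), a cluster that also held immune markers (8, summed to 176 to 1743 CPM, highest in Male-CCI) and fibroblast markers (5, summed to 436 to 550 CPM). There Tgfbr2 was at 19.4 to 41.8 CPM, Il1rap at 8.44 to 27.5, Tnfrsf12a at 11.3 to 62.3, Il1r1 at 1.64 to 9.15 and Il17ra at 0 to 3.92 (0 to 3 UMIs). All 7 satellite glial markers had UMIs in the neurons of each library; summed, they were at 1334 and 1671 CPM in Sprr1a- sham, 1130 and 1188 in Sprr1a- CCI and 694 and 996 in Sprr1a+ CCI neurons. Tnfrsf12a, Il17ra and Il1r1 in Sprr1a+ CCI neurons were above their level in SGC-like cells, and Tgfbr2 was below it. Leaving out neurons with more than 2 UMIs of the glial gene Fabp7, an alternative chosen after seeing the data, gave 2.59 for Tgfbr2 and -2.31 for Il1rap in Sprr1a+ CCI against Sprr1a- sham; the part of glial RNA in these changes was not tested further. The 8 immune markers summed to 2.06 to 8.03 CPM in the Sprr1a- and Sprr1a+ neurons of the CCI libraries.

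In the last comparison, among Sprr1a- neurons, 3 members were called higher in CCI and none lower, beside 4.49% of the 16407 genes tested (3.24% higher, 1.25% lower). Tnfrsf12a was at 14.8 and 15.7 CPM in CCI against 4.37 and 4.17 in sham (1.81, SE 0.07, adjusted p = 0.000145, edgeR). Il17ra was at 5.20 and 7.10 against 2.88 and 3.01 (1.04, SE 0.15), a call lost without Male-Sham (1.00), and Il1r1 at 4.13 and 4.83 against 3.01 and 2.94 (0.57, SE 0.11), a call lost without Male-Sham (0.57), Female-Sham (0.56) or Female-CCI (0.45). Part of the Tnfrsf12a signal came from few cells: 41 Sprr1a- neurons of Male-CCI and 72 of Female-CCI lay in CCI-ind clusters and held 43.2% and 34.8% of the Tnfrsf12a UMIs, and 18% and 15.6% of those of Il17ra. Without these cells, an alternative chosen after seeing the data, Tnfrsf12a was at 8.67 and 10.7 CPM with a log2 change of 1.26 (SE 0.11) and Il17ra changed by 0.84 (SE 0.17), both still called, and Il1r1 by 0.46, no longer called.

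Sprr1a itself was not absent from the Sprr1a- neurons of the CCI libraries. It had at least 1 UMI in 65.3% and 60.8% of them, at 23.1 and 27.0 CPM, against 2.19% and 4.04% in sham. With any Sprr1a UMI taken as positive, Tnfrsf12a in the remaining negative neurons changed by 1.15 and was still called. In cells thinned to 5000 UMIs, Tnfrsf12a was seen in 4.92% and 6.27% of Sprr1a- CCI neurons and 43.2% and 45.5% of Sprr1a+ CCI neurons, against 6.76% and 13.5% of SGC-like cells of those libraries, of which 56 of 130 and 60 of 112 were too shallow and left out (26.3%, 25.1%, 88.7%, 86.1%, 15.4% and 17.9% unthinned). The thinned share in Sprr1a- CCI neurons was below that in the glial cells of the same library and that of Sprr1a+ neurons above it. Whether SGC-like cells express Tnfrsf12a themselves was not tested, so by this share alone Sprr1a- CCI neurons could not be set apart from background. The part of free RNA in the Tnfrsf12a level of these neurons was not tested.

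Class by class, Sprr1a- neurons of 10 classes gave 9 calls on the members, 6 of them Tnfrsf12a. With any Sprr1a UMI taken as positive 2 of the 9 remained, Tnfrsf12a in NP2-like (1.98) and PEP2-like neurons (1.13), 6 were lost and the gene was not tested in NP1-like neurons. With DESeq2 Tnfrsf12a in NP2- and PEP1-like and Il17ra in PEP1-like neurons remained, 1 was lost and 5 had no adjusted p. In NP1-like neurons Tnfrsf12a was at 2.08 and 4.65 CPM in sham and 38.9 and 28.5 in CCI (3.37, SE 0.32); these neurons came from a Cd207 cluster that was mostly CCI and an Sst cluster that was mostly sham, and the change was not called when Sprr1a+ meant a level above 2 (2.40). Elsewhere the rise was 1.32 (SE 0.26) in NP2-like neurons, 1.00 (0.22) in NF1-like neurons, 1.31 (0.30) in PEP5-like neurons and 0.87 in PEP1- and PEP2-like neurons (SE 0.12 and 0.21). The PEP5-like call was lost without Female-CCI (1.23), the NF1-like call without Male-CCI (0.67) or Female-CCI (1.19), and the PEP2-like call without Male-CCI (0.69). In NP3-, PEP3/4-, NF2- and cLTMR-like neurons it was not called (1.41, 0.22, 2.06 and 1.04). In the NF2-like neurons the 2 CCI libraries differed, at 20.5 and 62.3 CPM. Among all genes, 3.97% were called in NP1-like, 4.47% in NP2-like, 2.66% in NP3-like, 5.32% in PEP1-like and 4.5% in PEP2-like neurons. The shares were 3.5% in PEP3/4-like, 3.45% in PEP5-like, 1.12% in NF1-like, 1.76% in NF2-like and 1.72% in cLTMR-like neurons.

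The remaining 3 calls were in PEP1- and PEP2-like neurons. Il17ra rose in PEP1-like neurons from 3.12 and 3.51 to 5.68 and 6.81 CPM (0.93, SE 0.17). Tnfrsf1a rose there by 0.55 (SE 0.15), a call lost without Male-Sham (0.43) or Female-CCI (0.32), and Il1r1 rose in PEP2-like neurons by 0.67 (SE 0.19), a call lost without Male-Sham (0.65), Female-Sham (0.69) or Female-CCI (0.52). A test of whether the change differed between the 10 classes called none of the 10 members with edgeR (11.8% of 14941 genes were called). Tnfrsf12a (unadjusted p = 0.0216, edgeR) and Il17ra (0.0241) were the 2 members with an unadjusted p under 0.05, and DESeq2 called 1 member, Tnfrsf12a (adjusted p = 0.00266).

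In the main clustering, enough Sprr1a+ CCI neurons for a test within the class were held by 3 classes: NP1-like (98 and 113 cells), NF1-like (55 and 33) and NF2-like (80 and 79). Another class, PEP5-like (150 and 158), came from a coarser clustering in which the PEP5-like cluster took in the Prss12/Gal cluster of the CCI-ind set, so that mostly different finer clusters make up its sham and its Sprr1a+ CCI neurons. The same holds for NP1-like neurons, whose Cd207 cluster held 100 and 120 CCI and 6 and 23 sham cells and whose Sst cluster 29 and 28 CCI and 82 and 63 sham cells. The name of the Cd207 cluster was close. It passed 6 of 7 NP1 markers (mean log2 ratio to other cells 2.06) and 11 of 11 CCI-ind markers (1.80). Clustered without injury genes, NP1-like neurons formed 1 cluster, and the changes there were 5.07 for Tnfrsf12a and 4.21 for Il1r1 (5.06 and 4.23 with both clusters joined). In that clustering NP2-like (114 and 149) and PEP3/4-like neurons (126 and 216) also held Sprr1a+ CCI cells, and their changes were not tested. Against Sprr1a- sham neurons of the same class, Tnfrsf12a, Il17ra and Il1r1 were called higher in all 4, beside 41.6%, 45.5%, 43.6% and 46.3% of all genes called in NP1-, NF1-, NF2- and PEP5-like neurons. Tnfrsf12a was at 103 and 102 CPM in NP1-like, 60.8 and 24.6 in NF1-like, 158 and 180 in NF2-like and 65.2 and 70.1 in PEP5-like Sprr1a+ neurons. Its log2 changes were 5.06 (SE 0.19), 3.27 (0.49), 4.23 (0.12) and 5.03 (0.15), and the NF1-like call was lost without Male-Sham (3.29) or Female-Sham (3.17) and fell to 2.29 without Male-CCI. The NP1-like call was lost when Sprr1a+ meant a level above 2 (3.80). The test of a difference between NP1-, NF1- and NF2-like neurons did not call Tnfrsf12a (adjusted p = 0.292, edgeR), but did with DESeq2 (0.00738) and with doublets kept (0.000467).

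**Figure D4:**
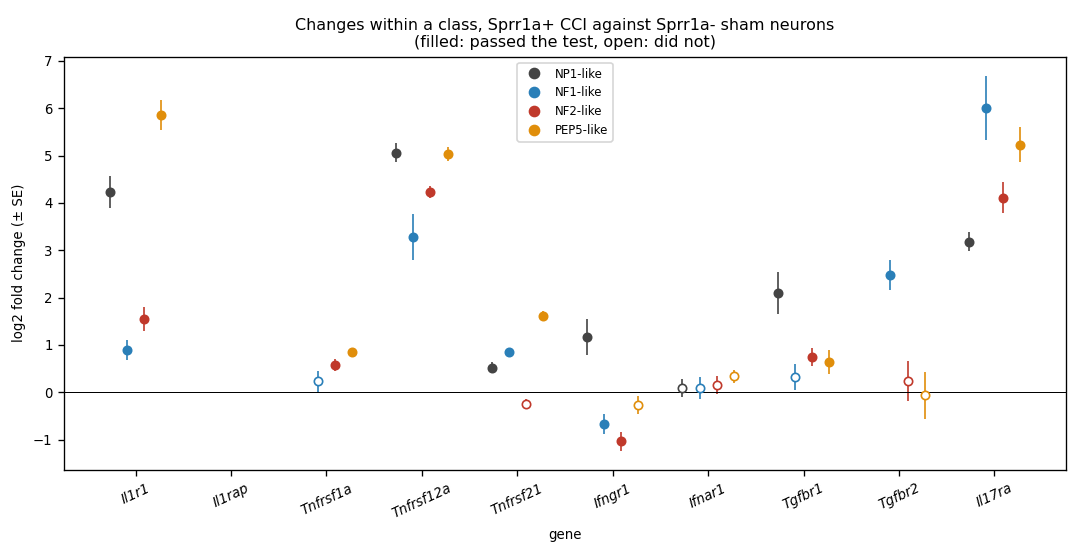
Log2 fold change with its standard error for each receptor in 4 classes, Sprr1a+ CCI against Sprr1a- sham neurons; filled points passed the test. Il1rap passed the low-count filter in none of the 4 classes and has no point. Il1r1 spreads from 0.89 in NF1-like to 5.85 in PEP5-like neurons, where few sham UMIs set the base. Ifngr1 spreads from -1.04 in NF2-like to 1.17 in NP1-like neurons.

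Il1r1 rose from 0.519 and 2.15 to 21.8 and 22.6 CPM in NP1-like neurons (4.23, SE 0.34), where 8 sham UMIs set the base and the change was 3.38 without Male-Sham and 5.42 without Female-Sham. In NF1-like neurons, the highest class in sham, it went from 10.4 and 8.73 to 14.4 and 13.5 (0.89, SE 0.21; not called without Male-CCI, 0.78). NF2-like neurons were between these (1.54, SE 0.25) and PEP5-like neurons reached 5.85 (SE 0.32). In the main clustering, Sprr1a- PEP5-like neurons held 7 Il1r1 UMIs over both sham libraries, a small base. The change differed between NP1-, NF1- and NF2-like neurons (adjusted p = 1.49e-05, edgeR), while the CCI levels of the 4 classes lay between 12.4 and 22.6 CPM.

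Il17ra likewise differed between the 3 classes (adjusted p = 0.0117, edgeR, beside 40.8% of 13083 genes called), and lost that call with any Sprr1a UMI taken as positive. It went from 4.41 and 6.44 to 49.1 and 42.9 CPM in NP1-like neurons (3.18, SE 0.21) and from 0.682 and 2.61 to 23.9 and 24.1 in NF2-like neurons (4.11, SE 0.34; 3.40 without Male-Sham, 5.33 without Female-Sham). NF1-like neurons held 2 Il17ra UMIs over both sham libraries and 33 in Sprr1a+ CCI neurons, a ratio of 61.7 with a 95% counting interval of 15.8 to 531. PEP5-like neurons went from 0.114 and 0.508 to 9.75 and 12.1 (5.23, SE 0.38; 6.67 without Female-Sham).

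The 2 TGF-β receptor chains were read class by class and were not tested against each other. In Sprr1a- NP1-like neurons Tgfbr2 held 5 UMIs over both sham libraries. Tgfbr2 rose in NF1-like neurons, from 2.01 and 2.04 to 9.10 and 8.79 CPM (2.47, SE 0.31), and not in NF2-like (0.24, SE 0.42) or PEP5-like neurons (-0.07, SE 0.49), and the test over NP1-, NF1- and NF2-like neurons called a difference with edgeR (adjusted p = 0.00632) but not with DESeq2 (0.174). Tgfbr1 rose in NP1-like neurons, from 1.30 and 1.79 to 6.59 and 5.88 (2.09, SE 0.44), with 10 UMIs over both sham libraries. It also rose in NF2-like (0.74, SE 0.19) and PEP5-like neurons (0.64, SE 0.25), and had 0.32 (SE 0.27) in NF1-like neurons (difference between classes, adjusted p = 0.0157 with edgeR, 0.219 with DESeq2 and 0.0734 with doublets kept). Its PEP5-like call was lost without Male-Sham (0.46) or Female-CCI (0.50), and its NF2-like call without Male-Sham (0.72).

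Ifngr1 moved both ways. It fell in NF2-like neurons from 16.7 and 20.2 to 7.42 and 7.83 CPM (-1.04, SE 0.20) and in NF1-like neurons from 16.5 and 18.3 to 9.32 and 7.03 (-0.68, SE 0.21; not called without Female-Sham, -0.63, or Female-CCI, -0.52). In NP1-like neurons it was at 4.15 and 1.43 in sham and 6.88 and 6.04 in CCI (1.17, SE 0.38; not called without Female-Sham, 0.71, or Male-CCI, 1.09). The difference between classes had an adjusted p of 0.000266 (edgeR). Ifnar1 was called in none of the 4 classes, with log2 changes of 0.08 to 0.34.

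Tnfrsf21 rose in NF1-like (0.85, SE 0.09) and PEP5-like neurons (1.61, SE 0.11) and in NP1-like neurons by 0.52 (SE 0.11), the last not called without Male-Sham (0.48) or Male-CCI (0.40). In NF2-like neurons, where its sham level was highest, it was at 176 and 158 CPM against 245 and 220 (-0.24, SE 0.10, not called), and the classes differed (adjusted p = 7.68e-07, edgeR). Tnfrsf1a rose in NF2-like (0.58, SE 0.12) and PEP5-like neurons (0.84, SE 0.10), classes with a high sham level, and had 0.23 (SE 0.23) in NF1-like neurons. With library totals, calls were lost for Tnfrsf1a in NF2-like (0.35), Tnfrsf21 in NP1-like (0.46), and Tgfbr1 in NF2-like (0.51) and PEP5-like neurons (0.35). Within the CCI libraries, Sprr1a+ against Sprr1a- neurons of the same class gave 15 calls, all higher, beside 23.9%, 43.5%, 35.4% and 43.3% of all genes in NP1-, NF1-, NF2- and PEP5-like neurons, and Il17ra was called in each of the 4 classes (1.68, 3.15, 1.89 and 3.17 in NP1-, NF1-, NF2- and PEP5-like neurons). Of the 15, Tgfbr1 lost its call with library totals in NP1-like (1.45) and PEP5-like neurons (0.43). With any Sprr1a UMI taken as positive there were fewer calls in the classes tested, and the Il1r1 change of NF2-like neurons turned its sign.

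The CCI-ind clusters differed in which receptors they carried, a description since all genes were used to cluster the cells. The cluster led by Wfdc3 had the highest Tnfrsf12a (208 and 223 CPM in Male-CCI and Female-CCI), and that led by Prss12 the lowest (66.8 and 72.0). Tnfrsf1a was at 46.2 and 48.2 in the Prss12 cluster and 25.5 and 26.1 in the Ly6a cluster, but 1.61 and 1.71 in the largest, led by Krt16. The Ly6a cluster also had the highest Il17ra (50.6 and 46.8), Tnfrsf21 (168 and 152) and Tgfbr1 (20.0 and 19.3). Il1r1 was highest in the Crh cluster (33.9 and 28.6), in which Il17ra was lowest (11.7 and 8.07) beside the Prss12 cluster (9.45 and 13.1). Il1rap was at most 0.995 in a cluster of either library.

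**Figure D5:**
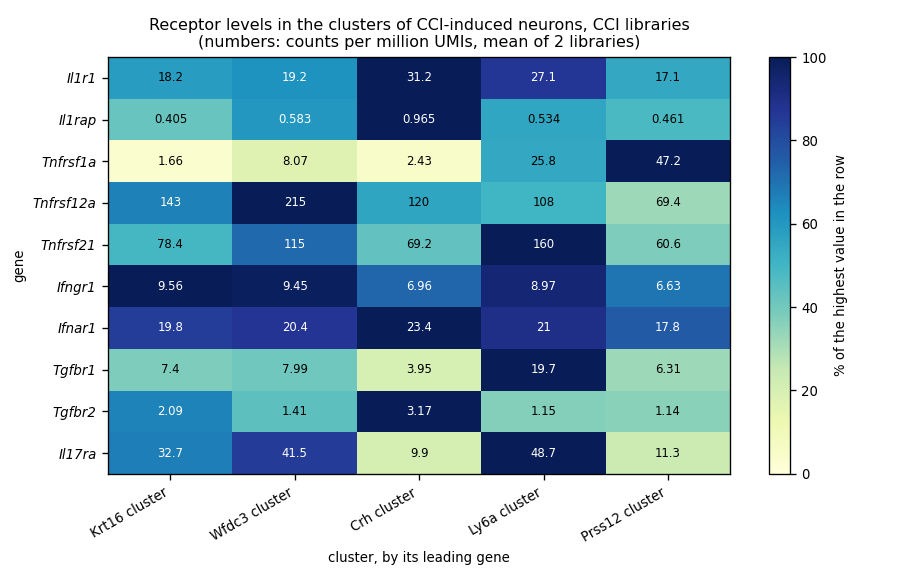
Mean level over the 2 CCI libraries of each receptor (rows) in the 5 clusters of CCI-induced neurons (columns, by leading gene); numbers are CPM and colour is the percent of the highest cluster in the row. Tnfrsf1a is at 47.2 in the Prss12 cluster and 1.66 in the Krt16 cluster, while Ifnar1 stays between 17.8 and 23.4.

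Receptor chains that work in pairs were also read cell by cell. Il1r1 had at least 1 UMI in 59.1% and 53.5% of Sprr1a+ neurons of Male-CCI and Female-CCI, Il1rap in 2.59% and 2.35%, and both in 1.71% and 1.06%. Il17ra had a UMI in 68.8% and 62.2% of them, its usual partner Il17rc in 2.66% and 2.18%, and both in 2.05% and 1.12%. For the TGF-β receptors Tgfbr1 was seen in 35.3% and 31.0%, Tgfbr2 in 11.1% and 8.05% and both in 4.57% and 2.29%. Ifngr1 was seen with Ifngr2 in 36.4% and 28.6%, and Ifnar1 with Ifnar2 in 40.8% and 26.8%. The shares that the single chains would give if independent were, in the same order, 1.53% and 1.26% for Il1r1 with Il1rap, 1.83% and 1.36% for Il17ra with Il17rc, 3.92% and 2.5% for the TGF-β chains, 34.4% and 27.1% for Ifngr1 with Ifngr2, and 38.7% and 25.8% for Ifnar1 with Ifnar2. In Sprr1a- neurons of the 4 libraries Il17ra and Il17rc were seen together in 0.343% to 0.704% (7 to 18 cells), against 0.684% to 1.5% if independent, and Il1r1 and Il1rap in 0.609% to 1.33% (18 to 43 cells), against 0.403% to 0.963%. In cells thinned to 5000 UMIs, Il1r1 (8.72% and 9.84%) and Il17ra (13.5% and 15.0%) were seen in more Sprr1a+ CCI neurons than SGC-like cells (4.05% and 1.92%, and 1.35% and 0%). Thinned shares of Il1rap (0% and 0.173%, against 8.11% and 9.62%), Tgfbr2 (1.73% and 1.21%, against 14.9% and 9.62%) and Tgfbr1 (4.15% and 4.89%, against 9.46% and 5.77%) were below those of the SGC-like cells. So were those of Ifngr1 (4.5% and 4.78%, against 33.8% and 19.2%) and Ifnar1 (10.8% and 9.73%, against 18.9% and 17.3%). Whether SGC-like cells express these genes themselves was not tested, so neither background nor expression in the neurons can be read from these shares. These shares depend on depth (median 60289 and 45685 UMIs in these cells), so a cell without a UMI may still express the gene.

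Ligands and signalling partners were counted over all neurons, CCI against sham, from lists of related genes, beside the 15.2% higher and 12.7% lower over all genes. Of 15 ligand genes 9 could be tested, and 6 rose and none fell (median log2 change 1.2, beside -0.01 over all genes). Tgfb1 went from 22.4 and 32.6 to 113 and 112 CPM (2.09, SE 0.21), while Il1a (4.22), Il1b (3.49) and Il1rn, the IL-1 receptor antagonist (1.93), stayed under 1 CPM in every library. Of 30 tested related receptors 7 rose and 6 fell (median -0.06): Il1r2, the decoy receptor of IL-1, went from 0.462 and 0.396 to 2.37 and 2.24 (2.48, SE 0.15), and Tnfrsf1b, the TNFR2 gene, from 0.962 and 1.21 to 5.46 and 5.37 (2.37, SE 0.13). Il1rl2, a chain of the IL-36 receptor (4.09), and Tnfrsf10b, the TRAIL receptor (1.5), rose while staying under 1 CPM. Among those that fell, picked out after its value was seen as the partner of Il17ra, was Il17rc (-0.92, SE 0.15, adjusted p = 0.0024, edgeR).

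Genes downstream of the receptors were counted likewise, and read against the same shares over all genes. Of 31 adaptors and kinases 5 rose, among them Traf4 (1.12), Casp8 (1.01) and Jak2 (0.58), and 2 fell, among them Traf1 (-0.79), with Casp8 and Traf1 under 1 CPM in every library; the median was 0.07. Of 18 NF-κB genes 5 rose and 2 fell, with Nfkbiz (1.41), Nfkb2 (1.40), Tnip2 (0.89) and Rela (0.82) higher, and Nfkb2 under 1 CPM in every library. Of 15 TGF-β response genes 6 rose and 3 fell, with Tgif1 (4.21), Tgfbi (3.99) and Ltbp1 (2.15) higher and a median of -0.05; Tgfbi and Tgif1 were also leading genes of CCI-ind clusters. In Sprr1a- neurons, where 3.24% of all genes were called higher and 1.25% lower, 5 of 15 TGF-β response genes and 1 of 27 related receptors rose, and no tested gene of the ligand, adaptor or NF-κB lists was called. These neurons include the Sprr1a- cells of the CCI-ind clusters, and Tgfbi was a marker used to name those clusters. The part of these cells in the counts was not tested.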

How the data were processed

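Sorted DRG cells of 4 libraries had been sequenced as 10x 3′ single-cell RNA libraries. The authors aligned the reads to mm10 with Cell Ranger (the matrix headers name version 3.0.2, the submitters' processing notes 2.1.1) and deposited raw UMI counts of 31053 genes for called cells. Here cells with fewer than 1500 genes or over 10% mitochondrial counts were removed, as were doublets. Because the automatic limit of scrublet (scanpy 1.11.5, expected rate 0.1) marked only 0 to 272 cells a library, the cells with the highest scrublet scores were removed, as many in each library as the study lists as doublets. The remaining cells were clustered in Seurat 5.3.0 (3000 variable genes, 20 principal components, resolution 0.8). A cluster took a class name where at least 40% of that class's markers passed, a limit set after seeing the data, and 1 cluster led by Calb1 stayed unnamed. Counts were summed per library and population and tested with edgeR 4.0.16 (TMM, robust quasi-likelihood, low-count filter, Benjamini-Hochberg adjustment over all genes tested), with DESeq2 1.42.0 as an alternative. On simulated data for all neurons edgeR recovered 88% of genes changed by 1 and 95% of those changed by 2 (log2). The members and gene lists were chosen with earlier results of these data known, and all members were described. From each list the 4 called genes with the largest changes in all neurons, in the same direction in both sexes, were named, apart from 1 gene that is not reported here, with up to 3 genes most alike in sham class levels for each member. Each p-value measures only the spread between these pooled libraries, and intervals cover counting error only. Alternatives were other scalings, filters, clusterings and Sprr1a limits, a block for sex and leaving out each library.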

Additional observations from a re-analysis of the deposited data

Results flagged for a closer look

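Receptor levels in the Sprr1a+ neurons of the sham libraries entered only the sums over all neurons, where these cells held 418 of 1116 Tnfrsf12a UMIs in Male-Sham and 831 of 1596 in Female-Sham. For 4 receptors the levels were more than 2-fold those of Sprr1a- sham neurons in both libraries, while Tnfrsf21 was at 80.9 and 82.5 CPM against 78.3 and 79.1. Male-Sham held 42 such neurons, 37 of them in CCI-ind clusters, and Female-Sham 144, of which 127. Tnfrsf12a was at 166 and 138 CPM, Il17ra at 25.8 and 19.3, Il1r1 at 16.7 and 15.5, and Tgfbr2 at 1.59 and 1.99 (4 and 12 UMIs). Sprr1a was at 2893 and 3165 CPM in these cells and Atf3 at 1319 and 1196. Tnfrsf1a was at 1.19 and 1.16 CPM in them, from 3 and 7 UMIs; the Ly6a cluster held 3 cells of Male-Sham and 1 of Female-Sham and the Prss12 cluster 1 and 5, and these were the CCI-ind clusters with the highest Tnfrsf1a in CCI. The 8 immune markers summed to 27.4 and 3.32 CPM and the 7 satellite glial markers to 598 and 961 CPM in these cells, and their part in the levels was not tested.

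A set of 6 receptors changed by different amounts in NP1-, NF1- and NF2-like neurons (Sprr1a+ CCI against Sprr1a- sham, edgeR test of the difference, which called 40.8% of 13083 genes): adjusted p was 7.68e-07 for Tnfrsf21, 1.49e-05 for Il1r1, 0.000266 for Ifngr1, 0.00632 for Tgfbr2, 0.0117 for Il17ra and 0.0157 for Tgfbr1. The Tgfbr1 and Tgfbr2 calls were lost with DESeq2, the Tgfbr1 call also with doublets kept, and the Il17ra call with any Sprr1a UMI taken as positive.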

How the results depend on the processing

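A limit of every comparison is that each group has 2 libraries. Over all neurons, members called stayed between 4 and 6 (CCI against sham), 5 and 7 (Sprr1a+ CCI against Sprr1a- sham) and 5 and 6 (within CCI) under the alternatives. In Sprr1a- neurons, leaving out a library in turn gave 328 to 713 genes called (736 with all) and 1 to 3 members (3 with all). By class, the 9 member calls of Sprr1a- neurons became 14 with no filter on low counts, 17 with sex as a replicate block, 16 with doublets kept, 2 with any Sprr1a UMI taken as positive and 6 to 15 without a library; DESeq2 called 3 and gave no adjusted p for 5 of the 9. Within CCI, any Sprr1a UMI gave 4725 genes (7394 in the main test) and 5 member calls by class (10 in the same classes). The difference between classes in Sprr1a- neurons was called for 1 member with DESeq2, 4 with no filter and 1 with Sprr1a+ above 2. The cause of these shifts was not tested.

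Signs turned only for small changes that were not called, apart from 1. Over all neurons Tgfbr1 became -0.014 with library totals and ran from -0.073 to 0.14 without a library. In Sprr1a- neurons Il1rap became 0.048 with any Sprr1a UMI (-0.20 to 0.056 without a library), Tnfrsf21 -0.069 with any Sprr1a UMI and Tgfbr2 -0.014 with doublets kept. In Sprr1a+ CCI against Sprr1a- sham neurons Ifnar1 became -0.12 with library totals, -0.012 with no filter and -0.012 with Fabp7-rich neurons left out, and ran from -0.0067 to 0.060 without a library. Within CCI, Tnfrsf1a became -0.051 with library totals, and the called Il1r1 change of NF2-like neurons became -0.14 with any Sprr1a UMI.

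Library totals in place of TMM scaling moved the median gene by -0.16 in Sprr1a+ CCI against Sprr1a- sham neurons (3958 higher and 4451 lower became 3205 and 5360), and in that comparison by -0.39 in NF1-like (2630 and 2875 became 1612 and 4634), -0.25 in NF2-like (2473 and 2647 became 1703 and 3707) and -0.32 in PEP5-like neurons (2817 and 3014 became 1774 and 4621). Within CCI the split moved likewise in NF1-like (2302 and 2506 became 1428 and 3945), NF2-like (1880 and 2125 became 1268 and 2742) and PEP5-like neurons (2516 and 2695 became 1407 and 4465). In Sprr1a- neurons it moved in NP3-like (183 and 128 became 249 and 87), PEP5-like (246 and 176 became 281 and 123), NF2-like (138 and 60 became 108 and 77) and cLTMR-like neurons (110 and 104 became 151 and 66).

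Replicate numbers follow sex, and male minus female differences of sham and CCI correlated at r = 0.334 over 12300 genes, from 2 pairs, so the samples were not taken as paired. With sex as a replicate block 1086 genes were called in Sprr1a- neurons (736 without it) and 4946 in all neurons (4795).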
